A study of Mus musculus with 6 samples.

Results

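Semaphorins, neuropilins and plexins are a family of guidance ligands and receptors, and 10 of their genes are described here in cultured heart muscle cells of newborn mice. The 10 were picked by name with earlier results of this comparison known, out of 52550 genes in the files. They are the secreted ligands Sema3a, Sema3c, Sema3d, Sema3e and Sema3f, the co-receptors Nrp1 and Nrp2, and the receptors Plxna2, Plxna4 and Plxnd1. The GR-cKO group comprised 3 libraries from cardiomyocytes in which the glucocorticoid receptor gene Nr3c1 had been deleted specifically in heart muscle, and the control group comprised 3 libraries from cells without that deletion. Both groups came from mice at postnatal day 1, were sorted magnetically for cardiomyocytes, grown for 48 hours with serum of horse (5%) and calf fetus (10%), and then kept for 24 hours in serum-free medium with no further treatment. The labels do not name the strain, the Cre driver, the deleted exon, the alleles that the controls carried, or whether a library stands for 1 animal or a pool.

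Class 3 semaphorins are secreted proteins that bind neuropilins, which have only a short tail inside the cell and pass the signal on through A-type plexins or Plxnd1. Plexins switch off small GTPases of the Ras and Rap kind and change the actin skeleton, so that cells and axons turn away from, or in some cases towards, the ligand. Sema3e is the exception in that it can bind Plxnd1 without a neuropilin. In the heart these genes are known for guiding sympathetic nerves (Sema3a), for division of the outflow tract (Sema3c, Nrp1 and Plxnd1) and for patterning of vessels (Sema3d, Sema3e and Plxnd1). Neuropilins also serve as co-receptors for vascular endothelial growth factors.

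Each library counted 1 tag near the 3' end of each messenger RNA, so levels of different genes can be set side by side without a correction for length. Levels are CPM, the usual scaling of gene counts to a common library size, scaled with the TMM method, and the libraries held 19371508 to 22583596 gene counts. Nr3c1 stood at 44.4 ± 1.7 CPM in GR-cKO and 71.5 ± 2.95 CPM in control (SD, n = 3 each), but its 3' tag need not lie in the deleted part. The control libraries held 5507 to 6103 counts of Xist and the GR-cKO libraries 0 to 2, so sex and genotype cannot be told apart. The heart muscle markers were abundant in every library, at 65215 to 66553 CPM in GR-cKO and 51912.5 to 53404 CPM in control, summed over 13 genes. Of these, 8 rose and 2 fell (76.9% called at an adjusted p of 0.05, against 14.8% of all tested genes). Markers of other cell types were present as well and are given beside the receptors. The libraries are bulk, so fewer cells of a type and less RNA per cell cannot be told apart in any value.

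RefSeq (build GRCm38.p6) gave a promoter window of 300 bases for 8 of the 10 genes, running from 250 bases before the transcription start to 50 after it. No entry was used for Sema3f and Plxna4. The window of Sema3a surrounds a start that lies 271 kb inside the gene as GENCODE places it, so what is said of it describes that internal start. The windows of Sema3a and Sema3e are printed because these ligands were lowest in GR-cKO relative to control, and those of Nrp2 and Plxnd1 because these receptors were highest. Capitals mark matches to 2 short motifs searched on both strands, the glucocorticoid receptor half-site AGAACA and the hypoxia response core ACGTG.
Sema3a (chr5:13396534-13396833, plus strand): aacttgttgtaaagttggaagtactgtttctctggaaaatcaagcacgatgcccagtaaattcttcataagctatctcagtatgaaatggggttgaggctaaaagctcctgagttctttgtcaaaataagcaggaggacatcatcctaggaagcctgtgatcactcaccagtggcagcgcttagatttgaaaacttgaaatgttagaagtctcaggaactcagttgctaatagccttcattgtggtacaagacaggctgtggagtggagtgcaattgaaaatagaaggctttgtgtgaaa
Sema3e (chr5:14025026-14025325, plus strand): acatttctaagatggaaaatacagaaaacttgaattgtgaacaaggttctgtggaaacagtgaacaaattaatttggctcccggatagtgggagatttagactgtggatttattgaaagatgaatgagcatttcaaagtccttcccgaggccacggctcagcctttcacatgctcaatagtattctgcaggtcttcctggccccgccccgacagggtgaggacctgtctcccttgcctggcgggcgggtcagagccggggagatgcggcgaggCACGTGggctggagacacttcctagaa
Nrp2 (chr1:62703067-62703366, plus strand): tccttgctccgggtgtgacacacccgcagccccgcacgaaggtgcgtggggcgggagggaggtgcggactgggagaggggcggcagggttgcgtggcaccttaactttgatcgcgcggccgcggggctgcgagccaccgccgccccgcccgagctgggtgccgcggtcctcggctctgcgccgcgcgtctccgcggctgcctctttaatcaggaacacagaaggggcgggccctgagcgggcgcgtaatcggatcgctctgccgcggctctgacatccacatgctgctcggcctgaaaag
Plxnd1 (chr6:115994956-115995255, minus strand): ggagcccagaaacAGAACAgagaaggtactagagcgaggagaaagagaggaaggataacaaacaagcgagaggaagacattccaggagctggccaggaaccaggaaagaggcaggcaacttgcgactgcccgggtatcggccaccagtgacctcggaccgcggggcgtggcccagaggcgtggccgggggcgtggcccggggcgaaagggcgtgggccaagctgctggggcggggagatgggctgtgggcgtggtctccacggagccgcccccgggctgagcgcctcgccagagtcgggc

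None of the 8 windows held the full glucocorticoid element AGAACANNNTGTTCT, which contains the half-site in both orientations and is found in 0.00913% of all 32851 promoter windows. The half-site was in 1 of the 8 windows, that of Plxnd1, and in 19% of all windows. The hypoxia core was in 2 of the 8, those of Sema3c and Sema3e, and in 19.6% of all windows. In Sema3e the matches on the 2 strands overlap in 1 palindrome, at position 274 of the window, which lies after the start site. The windows differed in base composition, with 41.3% G and C in Sema3a, 50.7% in Sema3e, 70.7% in Nrp2 and 67% in Plxnd1, against a median of 52.7% over all windows. These are matches of letters within short windows around 1 annotated start per gene and no measurement of binding. The bases after the start were found in a GENCODE transcript of the same gene for 7 of the 8 windows, the exception being Sema3d.

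Of the ligands, 3 were lower in GR-cKO, and a co-receptor and a receptor were higher, while the other 5 genes differed less. In the fit over all genes, 5 of the 10 passed an adjusted p of 0.05, against 14.8% of the 14386 genes tested. In 7 of the 10 the GR-cKO and control ranges were separate, against 29.9% of all tested genes. These counts describe how the 10 were chosen and give no support of their own. The lower genes were Sema3a, Sema3d and Sema3e, where 7.19% of all genes passed as lower, and the higher ones were Nrp2 and Plxnd1, where 7.63% passed as higher. The median log2 fold change of the 10, GR-cKO over control, was -0.14, beside -0.01 over all tested genes, and the median of its absolute size was 0.56, beside 0.20. All 10 genes had enough counts to be tested.

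**Figure D1:**
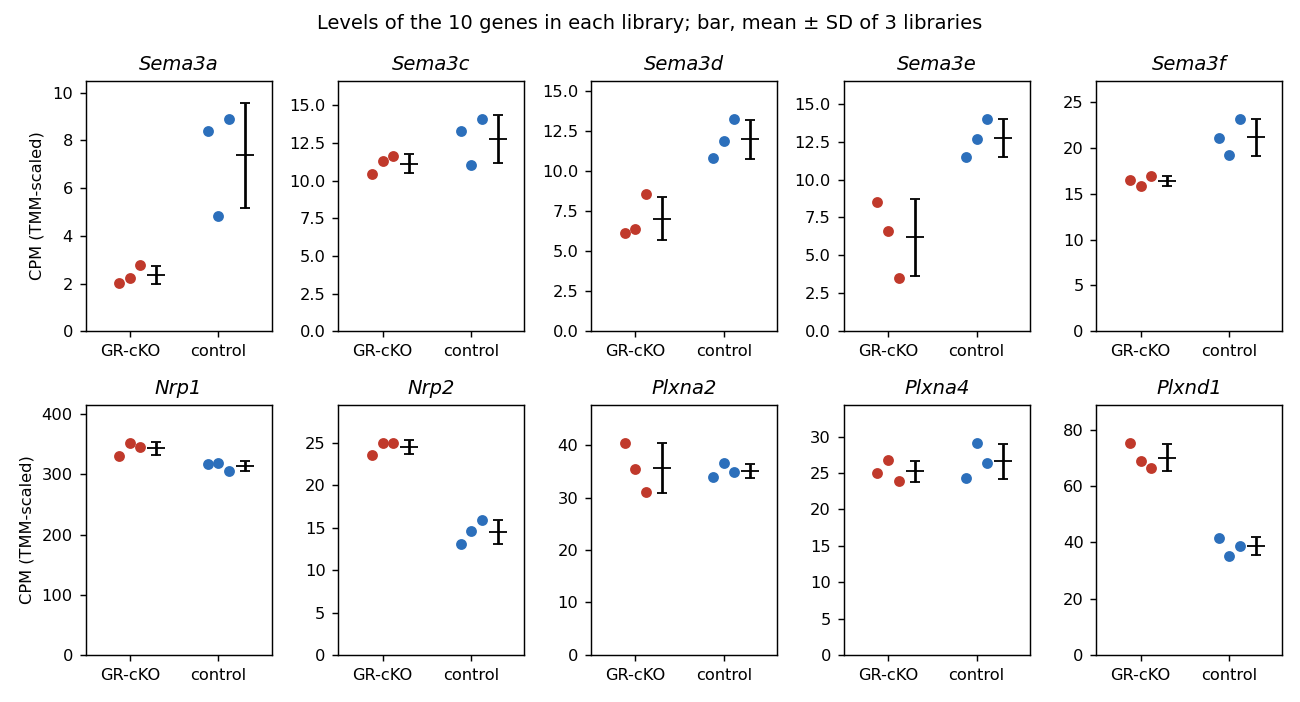
Each panel plots 1 gene in CPM from 0 upward, with 3 GR-cKO libraries on the left and 3 control libraries on the right as points, and the mean ± SD of each group as a black bar. Sema3a, Sema3d, Sema3e and Sema3f lie lower in every GR-cKO library than in any control library, Nrp1, Nrp2 and Plxnd1 lie higher, and the groups overlap in Sema3c, Plxna2 and Plxna4.

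Among the ligands, Sema3a (ENSMUSG00000028883, GRCm38 chromosome 5, 13125414 to 13602565, plus strand), a repellent for sympathetic and sensory axons, differed most. It stood at 2.03, 2.24 and 2.78 CPM in GR-cKO replicates 1 to 3 and at 8.39, 4.83 and 8.89 CPM in control replicates 1 to 3. Every GR-cKO library was below every control library, and control replicate 2 stood apart from the other controls. The log2 fold change was -1.65 ± 0.28 (SE), a level 3.13-fold lower in GR-cKO. The gene is scarce, with 45 to 54 counts in a GR-cKO library and 103 to 180 in a control library, and its log2 fold change lay between -1.88 and -1.49 as libraries, tools and scalings were varied. By the root mean square difference over the 6 libraries of log2(CPM + 0.1), each gene set against its control mean, its profile was most like those of Elavl2 (0.28), Art1 (0.31) and Wdfy1 (0.31) among 9871 genes with at least 5 CPM on average, predicted genes and pseudogenes left out, a measure that mainly reflects the difference between the genotypes.

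Sema3e (ENSMUSG00000063531, chromosome 5, 14025276 to 14256689, plus strand), the ligand of Plxnd1, stood at 8.54, 6.57 and 3.50 CPM in GR-cKO and at 11.5, 12.7 and 13.98 CPM in control. The groups did not overlap, but the GR-cKO libraries varied more than those of any other of the 10 genes, with a coefficient of variation of 40.9% in GR-cKO and 9.7% in control. Its log2 fold change was -1.03 ± 0.23, and it was -0.74 without GR-cKO replicate 3 and -1.33 without GR-cKO replicate 1. Sema3d (ENSMUSG00000040254, chromosome 5, 12383385 to 12588948, plus strand), which guides endothelial and neural crest cells in the developing heart, stood at 6.14, 6.38 and 8.55 CPM in GR-cKO and at 10.8, 11.9 and 13.2 CPM in control. All 3 GR-cKO libraries lay below the controls, and the log2 fold change was -0.77 ± 0.19.

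Sema3f (ENSMUSG00000034684, chromosome 9, 107681500 to 107710475, minus strand), a ligand with a preference for Nrp2, stood at 16.5, 15.8 and 16.9 CPM in GR-cKO and at 21.1, 19.2 and 23.2 CPM in control. The groups did not overlap, with a log2 fold change of -0.37 ± 0.13, but the gene was not among those past the threshold. Sema3c (ENSMUSG00000028780, chromosome 5, 17574281 to 17730268, plus strand), an attractant for cardiac neural crest cells, stood at 10.4, 11.3 and 11.6 CPM in GR-cKO and at 13.3, 11.01 and 14.1 CPM in control. Its groups overlapped because control replicate 2 lay within the range of the GR-cKO libraries, and the log2 fold change was -0.20 ± 0.16. Control replicate 2 was also the lowest control library of Sema3a and Sema3f.

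Sema3a, Sema3c, Sema3d and Sema3e lie within 5.35 Mb of each other on chromosome 5. This stretch, looked at after the values were seen, held 4 other tested genes, of which 1 passed as higher and none as lower. The one that rose was Cacna2d1, a calcium channel subunit, at 146 ± 8.08 CPM in GR-cKO and 111 ± 3.89 CPM in control (log2 fold change 0.39 ± 0.07, edgeR adjusted p = 0.000519). The hepatocyte growth factor gene Hgf, which also lies in the stretch, was at 0.938 ± 0.44 CPM in GR-cKO and 1.1 ± 0.423 CPM in control and did not pass (edgeR adjusted p = 0.868). Of the other 2, Pclo overlapped between the groups, and the predicted gene Gm43489 was lower in every GR-cKO library, at 0.18 ± 0.237 CPM in GR-cKO and 0.771 ± 0.117 CPM in control, and did not pass (log2 fold change -2.07 ± 0.85, edgeR adjusted p = 0.112).

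Among the co-receptors, Nrp2 (ENSMUSG00000025969, chromosome 1, 62703285 to 62818695, plus strand), which binds Sema3f and the lymphatic growth factor VEGF-C, stood at 23.6, 25.005 and 24.98 CPM in GR-cKO and at 13.0, 14.6 and 15.9 CPM in control. Every GR-cKO library was above every control library, and the GR-cKO libraries lay close together. The log2 fold change was 0.76 ± 0.13, a level 1.69-fold higher in GR-cKO. Nrp1 (ENSMUSG00000025810, chromosome 8, 128358604 to 128503363, plus strand), which binds Sema3a and VEGF-A, stood at 331, 352 and 346 CPM in GR-cKO and at 317, 319 and 305 CPM in control. The groups were separated by a narrow gap, the log2 fold change being 0.13 ± 0.06, which was not past the threshold. Nrp1 was far more abundant than Nrp2 in both groups, and Nrp2 made up 6.67% ± 0.0534 of the neuropilin counts in GR-cKO and 4.42% ± 0.494 in control (SD, n = 3 each).

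Among the receptors, Plxnd1 (ENSMUSG00000030123, chromosome 6, 115954811 to 115995005, minus strand), known from endothelial cells and outflow tract septation, stood at 75.3, 68.7 and 66.2 CPM in GR-cKO and at 41.6, 35.3 and 38.7 CPM in control. The gap between the groups was wider than the spread within either, and the log2 fold change was 0.86 ± 0.09, a level 1.82-fold higher in GR-cKO. Its ligand Sema3e, described above, was lower in the same libraries. Plxna2 (ENSMUSG00000026640, chromosome 1, 194618218 to 194816869, plus strand), which pairs with Nrp1 and is known from neural crest cells, stood at 40.4, 35.5 and 31.1 CPM in GR-cKO and at 33.9, 36.5 and 34.8 CPM in control. Its GR-cKO libraries enclosed the controls on both sides, and the log2 fold change of 0.02 ± 0.11 changed sign when single libraries were left out. Plxna4 (ENSMUSG00000029765, chromosome 6, 32144268 to 32588192, minus strand), a receptor for Sema3a signals in sympathetic neurons, stood at 24.98, 26.7 and 23.9 CPM in GR-cKO and at 24.4, 29.1 and 26.4 CPM in control. These groups overlapped as well, with a log2 fold change of -0.08 ± 0.12.

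**Figure D2:**
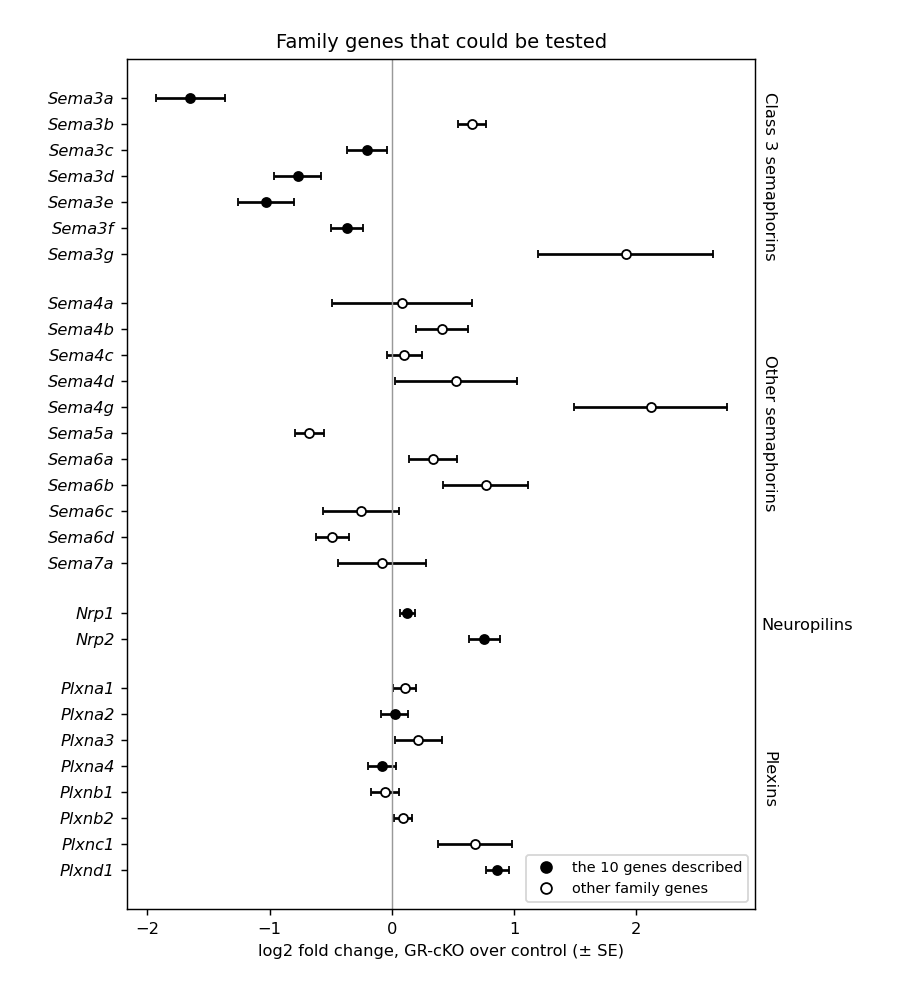
The horizontal axis is the log2 fold change, GR-cKO over control, with its SE as a bar, for the 28 tested genes of the family grouped as class 3 semaphorins, other semaphorins, neuropilins and plexins. Filled points are the 10 genes described and open points the other family genes; the 5 described class 3 semaphorins lie below 0 and Sema3b and Sema3g above it.

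The rest of the family, 21 semaphorins and plexins was listed whole by name. Of its 18 tested genes 2 rose and 2 fell (22.2% called, beside 14.8% of all genes), with a median log2 fold change of 0.16. Sema3b, a secreted class 3 ligand known as a growth suppressor in human lung cancer cells, rose to 34.5, 31.9 and 32.2 CPM in GR-cKO, against 22.5, 19.1 and 20.8 CPM in control (log2 fold change 0.66 ± 0.11, edgeR adjusted p = 0.000183). Sema5a, a membrane-bound semaphorin with thrombospondin repeats, fell to 21.2, 17.1 and 20.9 CPM in GR-cKO, against 34.2, 31.0 and 29.3 CPM in control (-0.67 ± 0.12, edgeR adjusted p = 0.000298). Neither group pair overlapped, and both calls held in all 13 alternative settings.

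Sema6d, a membrane ligand of Plxna1 in the developing chick heart, was at 15.6 ± 2.24 CPM in GR-cKO and 21.9 ± 0.699 CPM in control (log2 fold change -0.49 ± 0.14, edgeR adjusted p = 0.0154). This call was lost with spike-in scaling (adjusted p = 0.0946) and without control replicate 2, GR-cKO replicate 2 or GR-cKO replicate 3, where the highest adjusted p was 0.0746. Sema4g was scarce, at 1.47 ± 0.31 CPM in GR-cKO and 0.333 ± 0.184 CPM in control (2.12 ± 0.62, edgeR adjusted p = 0.022), and lost its call without control replicate 1 or 3 or GR-cKO replicate 1 or 2, with an adjusted p of up to 0.12.

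The remaining class 3 gene, Sema3g, an endothelial ligand, was at 0.857 ± 0.102 CPM in GR-cKO and 0.223 ± 0.107 CPM in control and did not pass (edgeR adjusted p = 0.0756). Plexins outside the chosen 3 did not pass either. Plxna1, at 46.9 ± 1.3 CPM in GR-cKO and 43.6 ± 3.69 CPM in control, and Plxnb2, at 193 ± 10.0 CPM in GR-cKO and 181 ± 12.8 CPM in control, were the abundant ones, with log2 fold changes of 0.11 ± 0.10 and 0.09 ± 0.07. Plxna3 and Plxnb1 had log2 fold changes of 0.22 ± 0.19 and -0.06 ± 0.12. Plxnc1, the receptor of Sema7a, varied between 3.03 and 7.21 CPM in GR-cKO and between 2.81 and 3.56 CPM in control (0.68 ± 0.30, edgeR adjusted p = 0.15), and passed only without GR-cKO replicate 1 (adjusted p = 0.0307).

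Of the other semaphorins, Sema4a, Sema4b, Sema4c, Sema4d, Sema6a, Sema6b, Sema6c and Sema7a did not pass, with log2 fold changes between -0.25 for Sema6c and 0.77 for Sema6b. Sema4b passed only without control replicate 3 (adjusted p = 0.0342). Sema4f, Sema5b and Plxnb3 had too few counts to be tested, and Sema5b was listed at 0 in all 6 libraries.

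**Figure D3:**
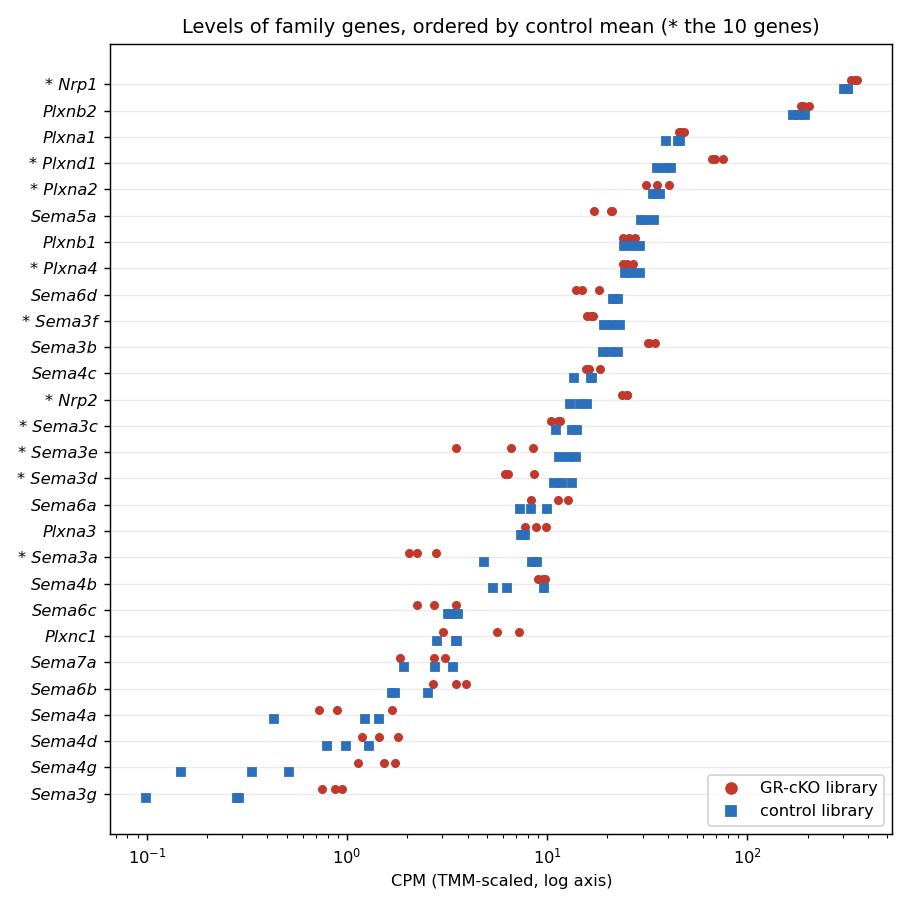
The horizontal axis is the level in CPM on a log scale for the 28 tested family genes, ordered by their control mean, with 3 GR-cKO libraries as circles above and 3 control libraries as squares below for each gene. Nrp1 and Plxnb2 lead in both groups, Plxnd1, Nrp2 and Sema3b are shifted to higher levels in GR-cKO, and Sema3a, Sema3d and Sema3e to lower levels.

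Ordered by mean level among the 28 tested family genes, Nrp1 came 1st and Plxnb2 2nd in both groups, with no overlap between these neighbours. Plxnd1 came 3rd in GR-cKO, clear of the next gene Plxna1. It came 4th in control, where its libraries overlapped those of Plxna1 above it and Plxna2 below it. Nrp2 came 9th in GR-cKO and 13th in control, and Sema3b 6th in GR-cKO and 11th in control. Sema3a came 24th in GR-cKO and 19th in control, Sema3e 19th and 15th in the same order, and Sema3d 18th and 16th. In GR-cKO the libraries of Nrp2 overlapped those of Plxna4 and Plxnb1, and those of Sema3b overlapped those of Plxna2. Those of Sema3d overlapped those of Sema3e, and those of Sema3a overlapped those of Sema7a and Sema6c, so these places are not resolved. In control, the libraries of Nrp2, Sema3c, Sema3e and Sema3d overlapped from each gene to the next. There those of Sema3b overlapped those of Sema3f and Sema6d, and those of Sema3a overlapped those of Plxna3 and Sema4b. These places are not resolved either.

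In total the class 3 ligands differed less than Sema3a or Sema3e did alone. The 5 described ligands summed to 43.6, 42.3 and 43.4 CPM in GR-cKO and to 65.1, 59.6 and 73.3 CPM in control. With Sema3b and Sema3g included, the 7 genes summed to 79.1, 74.96 and 76.5 CPM in GR-cKO and to 87.9, 79.0 and 94.3 CPM in control, ranges that overlapped slightly. Sema3b made up 42.8% ± 0.78 of this sum in GR-cKO and 24.0% ± 1.77 in control, while Sema3a made up 3.06% ± 0.536 in GR-cKO and 8.36% ± 1.95 in control (SD, n = 3 each). Sema3b was thus the leading class 3 messenger in GR-cKO, whereas Sema3f and Sema3b overlapped at the head of the list in control.

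Partners of neuropilins and plexins at the cell surface, and the growth factors that share neuropilins, moved in both directions. Of 17 tested genes 6 rose and 2 fell (47.1% called, beside 14.8% of all genes), with a median log2 fold change of 0.23. The receptor Kdr, which pairs with Nrp1 to bind VEGF-A, stood at 110, 97.6 and 97.7 CPM in GR-cKO and at 34.0, 39.3 and 40.5 CPM in control (log2 fold change 1.43 ± 0.09, edgeR adjusted p = 6.46e-11). Flt4, the lymphatic receptor that pairs with Nrp2, rose to 8.3 ± 1.7 CPM in GR-cKO, against 4.01 ± 0.547 CPM in control (1.05 ± 0.23, edgeR adjusted p = 0.00249).

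Among the ligands that neuropilins share, Vegfa rose to 139 ± 8.78 CPM in GR-cKO, against 64.9 ± 3.04 CPM in control, with a log2 fold change of 1.10 ± 0.08 (edgeR adjusted p = 4.54e-10). Pgf, the placental growth factor gene, rose to 7.82 ± 1.56 CPM in GR-cKO, against 2.1 ± 0.0746 CPM in control (1.896 ± 0.26, edgeR adjusted p = 1.06e-05). Vegfd, a ligand of Flt4, fell to 39.1 ± 0.858 CPM in GR-cKO, against 82.2 ± 3.81 CPM in control (-1.07 ± 0.09, edgeR adjusted p = 2.73e-09). Itga1, a collagen-binding integrin chain that also serves as a receptor chain for Sema7a, rose by 0.63 ± 0.08 on the log2 scale (edgeR adjusted p = 3.96e-06). These 6 genes held their calls in every alternative that could test them, Vegfd being on the X chromosome, while those of the 2 others, Flt1 and Erbb2, were each lost when any of 5 libraries was left out. Erbb2, 1 of the 2 genes counted as lower, lost its call in 9 of the 13 alternatives, among them spike-in scaling (adjusted p = 0.23) and DESeq2 (adjusted p = 0.0775).

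Inside the cell, 6 of 36 tested genes of plexin signalling rose and 3 fell (25% called, beside 14.8% of all genes). Their median log2 fold change was 0.04. Dpysl2 and Dpysl3 encode collapsin response mediator proteins, which link Sema3a signals to microtubules, and they went opposite ways. Dpysl2 fell to 239 ± 25.1 CPM in GR-cKO, against 337 ± 16.9 CPM in control (log2 fold change -0.50 ± 0.07, edgeR adjusted p = 3.3e-05), and Dpysl3 rose to 739 ± 11.9 CPM in GR-cKO, against 546 ± 21.3 CPM in control (0.44 ± 0.06, edgeR adjusted p = 1.05e-05). Rras, a GTPase that plexins inactivate, rose by 0.47 ± 0.07 on the log2 scale, and Limk2, a kinase of the actin-severing protein cofilin, by 0.36 ± 0.09. These calls of 4 genes were the ones kept in all 13 alternatives. Sh3bp1, a GTPase-activating protein for Rac, rose by 0.49 ± 0.11 and lost its call without GR-cKO replicate 1 (adjusted p = 0.0565), and Myo10, an unconventional myosin, rose by 0.32 ± 0.08 and lost it without control replicate 3 (adjusted p = 0.0532).

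Secreted class 3 semaphorins are cut by furin-like proteases. Of 8 tested proteases that act on semaphorins or their receptors or belong to the same families, 2 rose and 2 fell. This was 50% called, beside 14.8% of all genes, with a median log2 fold change of 0.15. The proprotein convertase Pcsk5 fell to 13.6, 14.2 and 16.7 CPM in GR-cKO, against 45.5, 49.2 and 38.9 CPM in control, with a log2 fold change of -1.59 ± 0.12 (edgeR adjusted p = 1.45e-09). It was the 1 call of this list kept in all 13 alternatives. Furin rose to 233 ± 19.6 CPM in GR-cKO, against 193 ± 5.87 CPM in control (0.27 ± 0.07, edgeR adjusted p = 0.0111), and lost its call without GR-cKO replicate 3 (adjusted p = 0.0608). Mmp14 and Adam10, with log2 fold changes of 0.25 ± 0.08 and -0.27 ± 0.09, each lost theirs without any of 4 libraries, with adjusted p of up to 0.204 and 0.225. Adam10, whose groups overlapped, also lost its call with spike-in scaling (adjusted p = 0.334) and DESeq2 (adjusted p = 0.0518).

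For comparison, 36 genes of other guidance families, the Slits and Robos, netrins with their receptors, and ephrins with Eph receptors, were listed by name. Of 28 tested 1 rose and 7 fell (28.6% called, beside 14.8% of all genes), with a median log2 fold change of -0.18. The receptor Epha4 fell to 22.7 ± 3.58 CPM in GR-cKO, against 41.7 ± 1.07 CPM in control (log2 fold change -0.88 ± 0.12, edgeR adjusted p = 6.17e-06), and was the 1 call kept in all 13 alternatives. Efnb2 (-0.52 ± 0.14), Epha3 (-0.89 ± 0.26), Epha1 (-2.27 ± 0.73) and Unc5c (-0.61 ± 0.20) were lower and the endothelial receptor Robo4 (0.77 ± 0.20) higher, given as log2 fold changes, and each lost its call in 2 to 11 of the 13 alternatives. Epha1, which lost its call in 11, was scarce, at 0.178 ± 0.0731 CPM in GR-cKO and 0.884 ± 0.235 CPM in control. With spike-in scaling 2 genes of this list were called and without control replicate 2 only 1. The difference between this list and the semaphorins was not tested.

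**Figure D4:**
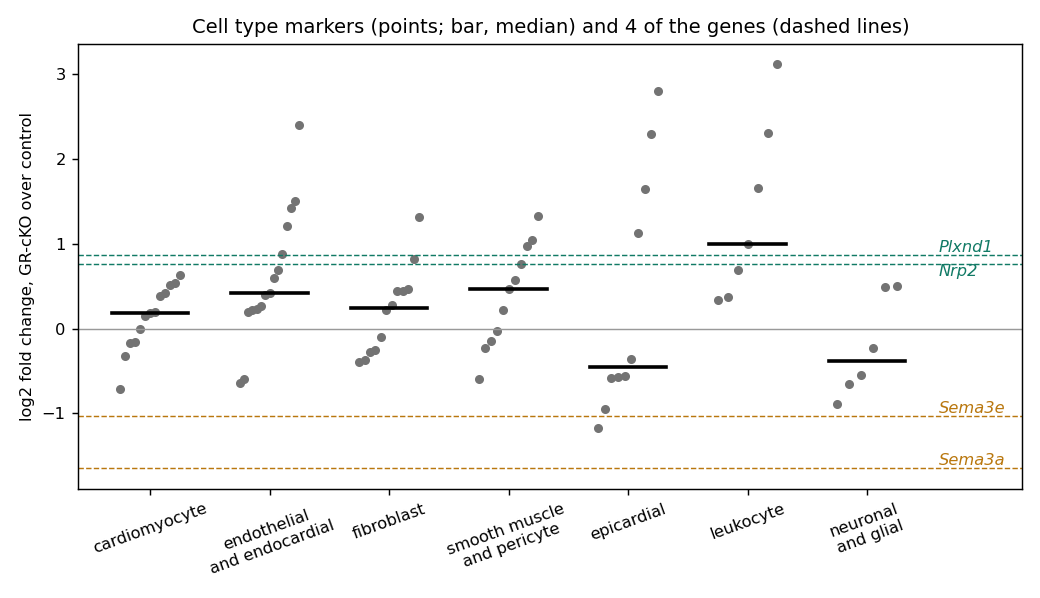
Each point is a tested marker of the cell type named below it, placed by its log2 fold change, GR-cKO over control, with the median of each list as a bar; dashed lines mark Plxnd1, Nrp2, Sema3e and Sema3a. Endothelial and smooth muscle markers lie mostly above 0 and 4 of the 6 neuronal and glial markers below it, and Sema3a lies below every marker plotted.

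Markers of other cell types differed between the groups as well. Over all tested genes, 7.63% passed as higher and 7.19% as lower. Of 15 endothelial and endocardial markers, among them Kdr and Flt1 already described, 9 rose and 2 fell, and their summed level was 1461 to 1566 CPM in GR-cKO and 1154 to 1202 CPM in control. The rises ran from 1.15-fold for Pecam1 to 5.26-fold for Fabp4, with 1.84-fold for Esam and 2.83-fold for Vwf, beside 1.82-fold for Plxnd1 and 1.69-fold for Nrp2. Cdh5 and Pecam1, both from the endothelial list, were at 87.5 ± 2.5 and 313 ± 4.95 CPM in GR-cKO and at 66.5 ± 0.587 and 273 ± 18.2 CPM in control. The endocardial marker Emcn was at 159 ± 5.13 CPM in GR-cKO and 247 ± 5.98 CPM in control. Plxnd1, Nrp2, Kdr and Flt4 are all expressed by endothelial cells, and the part of these cells in their differences was not tested. Smooth muscle and pericyte markers rose in 7 of 11 tested and none fell, with sums of 6936 to 7081 CPM in GR-cKO and 4975 to 5195 CPM in control. Most of these sums came from Acta2 and Des. Acta2 was at 3835 ± 116 CPM in GR-cKO and 3294 ± 54.8 CPM in control, and Des at 2438 ± 183 and 1242 ± 67.4 CPM. Of the markers not called, Tagln was lower in every GR-cKO library (log2 fold change -0.23 ± 0.08). Myh11 (-0.60 ± 0.27), Kcnj8 and Abcc9 overlapped between the groups. Vtn was at 0 in all libraries.

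Fibroblast markers rose in 5 of 12 and 1 fell, with sums of 5024 to 5177 CPM in GR-cKO and 3980 to 4164 CPM in control. Most of these sums came from the collagens Col1a1, at a mean of 1911 CPM in GR-cKO and 1385 CPM in control, and Col1a2, at 1629 and 1199.7 CPM. Col3a1, Postn and Mfap5 also rose, and Dcn fell (log2 fold change -0.37 ± 0.06). Of the markers not called, Lum was higher in every GR-cKO library, and Ddr2 (-0.25 ± 0.09) and Thy1 (-0.39 ± 0.15) were lower in every one. Pdgfra, Tcf21 and Fbln2 overlapped between the groups. Epicardial markers rose in 4 of 10 tested and fell in 3, with a median log2 fold change of -0.46. Their sums were 258 to 290 CPM in GR-cKO and 157 to 165 CPM in control, but in GR-cKO most of that level came from the keratins Krt18, at 148 ± 12.6 CPM in GR-cKO and 47.5 ± 4.95 CPM in control, Krt19 and Krt8, which other epithelial cells also express. Of the other epicardial markers Msln rose, while Tbx18 (-0.55 ± 0.09), Upk3b (-1.17 ± 0.22) and Lrrn4 (-0.94 ± 0.23) fell, given as log2 fold changes. Of 7 tested leukocyte markers 3 rose and none fell, with sums of 36.8 to 58.2 CPM in GR-cKO and 14.4 to 18.8 CPM in control. Most of these sums came from Lyz2, at 40.6 ± 9.66 CPM in GR-cKO and 12.9 ± 2.25 CPM in control. Tyrobp and Cd52 also rose but were scarce, at 1.72 and 1.22 CPM on average in GR-cKO. Cd68, Csf1r, Cx3cr1 and Fcer1g overlapped between the groups and were not called. Neuronal and glial markers had 1 fall and no rise among 6 tested and summed to 33.8 to 40.1 CPM in GR-cKO and 53.6 to 54.4 CPM in control, a difference in the same direction as Sema3a. Th and Sox10 were each at no more than 0.497 CPM in any library. Erythroid markers had no call among 2 tested and summed to 3.52 to 5.00 CPM in GR-cKO and 1.31 to 3.21 CPM in control. The part of these cell types in the semaphorin values was not tested.

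**Figure D5:**
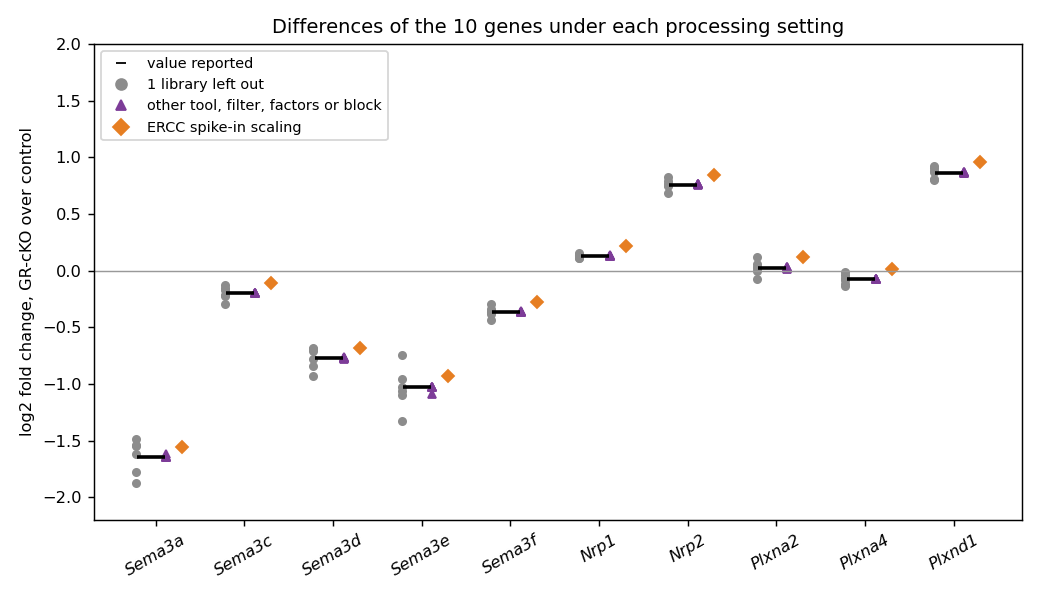
The vertical axis is the log2 fold change, GR-cKO over control, of each of the 10 genes; the black dash is the value reported, circles leave out 1 library each, triangles use another tool, filter, set of factors or the replicate block, and diamonds use spike-in scaling. Sema3a, Sema3d and Sema3e stay below 0 and Nrp2 and Plxnd1 above it in every setting, while Plxna2 and Plxna4 cross it.

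Sema3a, Sema3d, Sema3e, Nrp2 and Plxnd1 were the same 5 genes past the threshold in all 13 alternatives. Over these settings the log2 fold change lay between -0.93 and -0.68 for Sema3d, between -1.33 and -0.74 for Sema3e, between 0.69 and 0.85 for Nrp2 and between 0.80 and 0.96 for Plxnd1. Scaling by spike-in RNA put the median of all genes at 0.09, beside -0.01 with TMM, on the log2 scale, and under it Nrp1 stood at 0.22, Plxnd1 at 0.96 and Sema3a at -1.56. No exon of an expressed gene overlapped those of the 10, the overlapping annotations being Mir1903 in Nrp1 and Plxna4os3 in Plxna4, both at 0.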

How the data were processed

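RNA of cultured neonatal cardiomyocytes was sequenced as 6 libraries with a 3' tag protocol from 100 ng of total RNA, per the labels' protocols. The deposited files hold raw counts per gene that the authors made with STAR 2.5.4a and featureCounts 1.6.2 on GRCm38 after trimming with cutadapt 1.16, per the submitters' processing notes. Each file lists 52550 genes and separate spike-ins, which were left out of library sizes. Counts were tested with edgeR 4.0.16 (R 4.3.3), using TMM factors, the default expression filter and a quasi-likelihood test with Benjamini-Hochberg adjustment over 14386 genes at a threshold of 0.05. The code was checked on simulated data. A count of 3 in a library equals 0.133 to 0.155 CPM, which covers counting error only. The labels call the libraries biological replicates without naming separate animals or cultures, so p-values measure the spread between these libraries.

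The 10 genes, the other lists and the tests were chosen with earlier results of these data known. All 10 genes are named; of the other lists, every tested semaphorin and plexin and up to 6 called genes with the smallest p. The 13 alternatives were 2 other scalings, 2 other filters, DESeq2 1.42.0, a fit without chromosomes X and Y, the replicate block, and each of 6 libraries left out. Gene positions come from GENCODE M21 and promoters from RefSeq.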

Additional observations from a re-analysis of the deposited data

How the results depend on the processing

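The same 5 of the 10 genes were called in each of the 13 alternatives. With spike-in scaling 522 genes were called lower, against 1035 with TMM, and 72.2% of calls were higher, against 51.5%; 2 genes of the other guidance families were called, against 8. DESeq2 called 4 of that list. The cause was not tested. With 1 library left out, calls ranged from 1572 to 1879 over all genes (842 to 993 higher, 726 to 889 lower), against 2132, from 5 to 5 among the 10 genes, from 2 to 4 among other semaphorins and plexins, from 6 to 7 among co-receptors, from 7 to 10 among signalling genes, from 2 to 4 among proteases and from 1 to 6 among other guidance families. Fewer samples entered those fits. The lowest count among other semaphorins and plexins came without GR-cKO replicate 2. Among proteases 2 were called without control replicate 3, GR-cKO replicate 1 or GR-cKO replicate 2.

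Same-numbered libraries did not deviate together, with correlations of -0.00657, -0.0323 and 0.114 over 10154 genes, so the numbers were not taken to pair them. With the replicate block 2353 genes were called, 5 of the 10 among them. Sema3a rests on as few as 45 counts in a library, and genes under 1 CPM are limited by depth.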
